A study of Mus musculus with 4 samples.

Results

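Akt and mTOR are kinases that pass growth factor and nutrient signals on to protein synthesis, and mouse liver holds several genes that p53 can switch on and whose products hold these kinases back. The 8 genes described here were chosen by name, with earlier results of these data known, and were all found among the 25239 genes counted. They are Phlda3, Ddit4, Ddit4l, the sestrins Sesn1, Sesn2 and Sesn3, the stress hormone gene Gdf15 and the RNA regulator Zmat3. The liver RNA came from C57BL/6 mice aged 6 to 8 weeks, with 2 libraries from animals given an extract of the plant Gynura segetum by stomach tube (30 g/kg daily over 3 weeks, as a 2 g/mL concentrate), and 2 control libraries from animals given normal saline. Gynura segetum holds pyrrolizidine alkaloids, which the liver converts to reactive pyrroles that bind DNA and protein. Whether the libraries of a group stem from separate mice is not stated, so the p-values reflect the spread between libraries alone, and that spread may be technical.

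Phlda3 is a small protein made of little more than a lipid-binding domain, with which it competes with Akt for membrane phosphoinositides. Ddit4 (REDD1) and its relative Ddit4l (REDD2) restrain mTORC1, the mTOR complex that drives translation, through the TSC complex. Sestrins restrain mTORC1 by binding the GATOR2 complex of the amino acid sensing branch, and Sesn2 is a leucine sensor. Gdf15 is secreted and acts on Gfral, a receptor of the hindbrain that lowers appetite, and Zmat3 is a zinc finger protein that binds RNA and affects splicing and mRNA stability.

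After the extract 6 of the 8 genes were higher, by 3.69-fold for Ddit4 to 87.7-fold for Phlda3, and Sesn1 and Sesn3 were not past the threshold. All 8 genes had enough counts for the test, edgeR's quasi-likelihood test with Benjamini-Hochberg adjustment over 13963 genes and a threshold of 0.05. With that test 4.91% of all genes were higher and 3.63% lower, or 8.54% in either direction, against 6 higher and 0 lower of the 8. For the lower direction 1 of the 8, Sesn1, had an unadjusted p under 0.05, and DESeq2 and limma-voom also called 0 lower. The median log2 fold change of the 8 genes was 2.65, against 0.00 over all genes (-0.0047 before rounding).

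Levels are given as TMM-scaled CPM, the counts of a gene relative to the scaled size of its library, from 32215268 to 49711750 gene counts per library. Records that name no gene took from 16.5% to 21.96% of all records. Scaling by total counts alone moved the median log2 fold change of all genes to 0.16 and the calls over all genes to 940 higher and 338 lower, against 686 and 507 with TMM. It still left 6 of the 8 genes higher and 0 lower.

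The promoters of 7 of the 8 genes, all but Zmat3, were read from RefSeq on GRCm38.p6 (the assembly of mm10). The 9 windows each ran from 250 bases before to 50 bases after a start site. The windows below belong to the gene that rose most, to a Ddit4 relative that rose, to the sestrin that rose and to the later of the Sesn1 start sites, and the last shows a window with a p53 motif before a gene that did not rise. Capitals mark matches on either strand to the p53 decamer (the repeated unit of the p53 response element), the Nrf2 element TGACNNNGC, the GC box GGGCGG and the TATA box TATAAA.
Phlda3, chr1:135765835-135766134, plus strand: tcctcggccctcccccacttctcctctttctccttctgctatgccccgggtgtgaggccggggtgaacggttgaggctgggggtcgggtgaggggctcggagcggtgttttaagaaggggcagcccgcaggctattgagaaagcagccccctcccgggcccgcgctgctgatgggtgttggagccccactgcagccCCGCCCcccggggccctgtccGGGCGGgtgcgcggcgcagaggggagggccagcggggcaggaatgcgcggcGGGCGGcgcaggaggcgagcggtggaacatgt
Ddit4l, chr3:137623422-137623721, plus strand: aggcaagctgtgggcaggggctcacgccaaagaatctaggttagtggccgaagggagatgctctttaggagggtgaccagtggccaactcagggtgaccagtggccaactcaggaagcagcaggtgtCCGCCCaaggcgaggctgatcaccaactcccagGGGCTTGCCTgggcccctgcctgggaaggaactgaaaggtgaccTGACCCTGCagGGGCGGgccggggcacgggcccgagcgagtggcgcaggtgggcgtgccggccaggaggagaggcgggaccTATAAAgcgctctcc
Sesn2, chr4:132510407-132510706, minus strand: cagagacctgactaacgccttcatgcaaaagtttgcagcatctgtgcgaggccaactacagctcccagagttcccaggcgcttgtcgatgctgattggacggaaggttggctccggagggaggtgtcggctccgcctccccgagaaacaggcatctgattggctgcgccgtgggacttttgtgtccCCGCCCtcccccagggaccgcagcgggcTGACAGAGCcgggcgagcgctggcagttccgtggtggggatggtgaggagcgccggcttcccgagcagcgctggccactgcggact
Sesn1, chr10:41887189-41887488, plus strand: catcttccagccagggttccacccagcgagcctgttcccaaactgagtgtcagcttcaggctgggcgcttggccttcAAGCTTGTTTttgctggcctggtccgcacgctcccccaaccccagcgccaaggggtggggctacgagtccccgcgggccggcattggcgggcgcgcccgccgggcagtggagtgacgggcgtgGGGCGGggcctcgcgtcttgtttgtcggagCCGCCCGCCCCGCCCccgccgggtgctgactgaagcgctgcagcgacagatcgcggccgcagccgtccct

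An exact p53 decamer was found in 2 of the 9 windows, against 8.36% of 32851 RefSeq promoters of the same length. It began 90 bases before the start site of Ddit4l, which rose, and 173 bases before the later start site of Sesn1, which did not. The last bases of the Phlda3 window fit the first part of the decamer, but the window edge cuts off the rest. That window was therefore not counted. The Nrf2 element lay in the Ddit4l and Sesn2 windows, against 12.4% of all promoters. GC boxes lay in 7 of the 9 windows, against 35.7% of all promoters, and matches of it overlap each other in the Sesn1 window. The windows were rich in G and C, at 71.7% for Phlda3, 65.7% for Ddit4l and 64.7% for Sesn2, against a median of 52.7% over all promoters. The TATA box was found only in Ddit4l among the 9 windows, 35 bases after its start site, and in 13.6% of all promoters. The E-box CACGTG was found in 1 Gdf15 window (7.15% of all promoters), the FoxO element GTAAACA in the earlier Sesn1 window (3.65%), the CCAAT box CCAAT in 6 windows (37.4%) and the Atf4 composite element TGATGNAA in 0 (3.97%). A match is a run of letters and no measure of binding, and p53 sites outside these windows were not searched for.

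**Figure D1:**
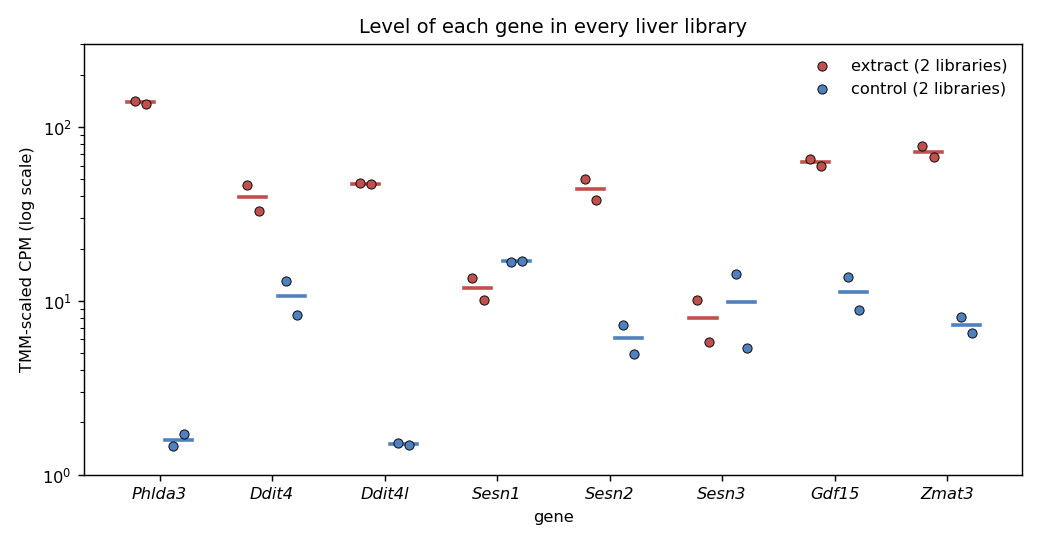
Level of each of the 8 genes in every liver library, as TMM-scaled CPM on a log axis, with extract libraries in red and control libraries in blue, a point per library and a bar at the mean of 2. Phlda3 and Ddit4l stand apart most, at 135.8 to 141.1 and 46.8 to 47.8 CPM in extract libraries against under 2 CPM in control libraries, while the points of Sesn3 overlap.

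Phlda3, the Akt inhibitor, went furthest. It had 6087 and 6472 counts in the extract libraries, against 70 and 51 in the control libraries, or 141.1 and 135.8 CPM against 1.46 and 1.72 CPM. Even the lower extract library lay 79.1-fold above the higher control library. The gene (chromosome 1, 135766085 to 135769134, plus strand) had a log2 fold change of 6.45 (SE 0.18, 95% interval 6.02 to 6.89, edgeR adjusted p = 8.29e-05), the 34th highest of 13963 genes. Among its relatives, Phlda1 lay at 106.8 ± 8.37 CPM in extract libraries and 115.2 ± 15.8 CPM in control libraries (SD, n = 2 each; log2 fold change -0.11, edgeR adjusted p = 0.737). The sign of Phlda1 turned without control replicate 1 (0.038) and with total-count scaling (0.053), where the median of all genes was 0.16. Phlda2, an imprinted gene of the placenta that was singled out after its values were seen, had 65 and 53 counts in extract libraries, against 4 and 0 in control libraries, and was past the threshold (edgeR adjusted p = 0.0324), but not without extract replicate 1 or without extract replicate 2. It was the 1 gene higher among 5 tested relatives of Phlda3 and Zmat3, with 0 lower, or 20% called, against 8.54% of all genes.

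Both Ddit4 genes rose, the scarcer one far more. Ddit4l (chromosome 3, 137623672 to 137628332, plus strand) had 2060 and 2232 counts in extract libraries, against 73 and 44 in control libraries. In CPM these were 47.8 and 46.8 after the extract, against 1.52 and 1.48 in control. Replicates of Ddit4l differed by 1.02-fold in the extract pair and 1.03-fold in the control pair, and its log2 fold change was 4.97 (SE 0.17, 95% interval 4.57 to 5.37, edgeR adjusted p = 0.000105). Ddit4 (chromosome 10, 59949675 to 59951770, minus strand) had 46.5 and 33.0 CPM in extract libraries, against 13.1 and 8.35 CPM in control libraries. These values spread more, by 1.41-fold in the extract pair and 1.57-fold in the control pair, and still did not overlap. The log2 fold change of Ddit4 was 1.89 (SE 0.27, 95% interval 1.23 to 2.54, edgeR adjusted p = 0.0118). Levels of different genes can be set side by side only per length, here CPM per kb of annotated exon. On that scale Ddit4l made up 38.2% and 46.0% of the summed level of both genes in extract libraries, against 6.55% and 9.65% in control libraries, and the sum was 42.9 and 34.9 against 7.97 and 5.26 CPM per kb.

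Of the sestrins only Sesn2 was past the threshold. Sesn2 (chromosome 4, 132492804 to 132510456, minus strand) had 2159 and 1813 counts in extract libraries, against 348 and 148 in control libraries, or 50.1 and 38.1 against 7.25 and 4.98 CPM. The lower extract library was 5.25-fold above the higher control library. The log2 fold change was 2.84 (SE 0.24, 95% interval 2.26 to 3.41, edgeR adjusted p = 0.00161), or 7.15-fold. Sesn1, also a known p53 target, went the other way without passing the threshold. Sesn1 (chromosome 10, 41810574 to 41908436, plus strand) had 13.6 and 10.1 CPM in extract libraries, against 16.8 and 16.96 CPM in control libraries, and the groups did not overlap. Its log2 fold change was -0.51 (SE 0.19, 95% interval -0.97 to -0.05, edgeR adjusted p = 0.175, unadjusted p = 0.0357). An increase was outside that interval, which holds for the main fit and is not adjusted for the number of genes. With total-count scaling Sesn1 stood closer to no change, at -0.34 (SE 0.20, edgeR adjusted p = 0.347). It was past the threshold without control replicate 1 (log2 fold change -0.52, edgeR adjusted p = 0.0430) and without control replicate 2 (-0.50, 0.0437), and the adjusted p ran from 0.0430 to 0.765 over 14 alternatives. Sesn3 (chromosome 9, 14276301 to 14326134, plus strand), a sestrin known as a FoxO target, had 10.1 and 5.79 CPM in extract libraries, against 14.2 and 5.39 CPM in control libraries. The Sesn3 groups overlapped, and the control pair alone differed by 2.64-fold, a ratio that 7.95% of all genes tested exceeded. Its log2 fold change was -0.31 (SE 0.52, 95% interval -1.63 to 1.003, edgeR adjusted p = 0.782), and leaving out single libraries gave values from -0.84 to 0.55 and an adjusted p from 0.00834 (without control replicate 2) to 0.995. A change of Sesn3 was not detectable with these libraries.

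The make-up of the sestrin transcripts therefore differed between the groups. Per kb of exon, Sesn2 took 78.0% and 78.9% of the summed sestrin level in extract libraries, against 28.9% and 23.7% in control libraries. Sesn1 took 18.4% and 18.3% after the extract, against 58.2% and 70.5% in control. The sum of the sestrins was 18.5 and 13.9 CPM per kb in extract libraries and 7.23 and 6.05 CPM per kb in control libraries, with no overlap. These shares rest on exon lengths of GENCODE vM21 (3.98 kb for Sesn1, 3.48 kb for Sesn2 and 15.27 kb for Sesn3), and the length of the Sesn3 transcript used in liver was not measured.

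**Figure D2:**
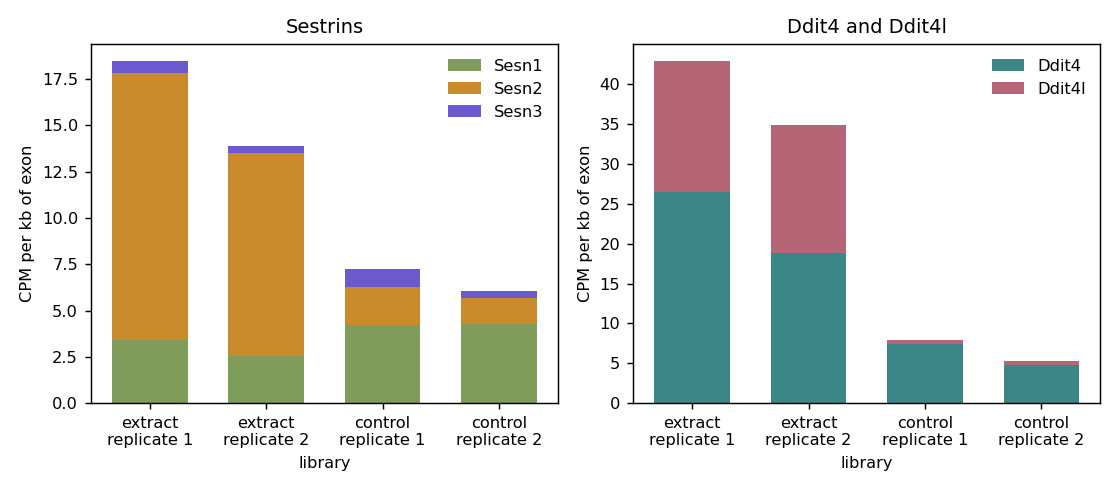
Summed levels of the sestrins (left) and of Ddit4 and Ddit4l (right) in each library, in CPM per kb of exon, stacked by gene, with the extract libraries left of the control libraries. Sesn2 makes up 78.0% and 78.9% of the sestrin bars of the extract libraries and 28.9% and 23.7% of those of the control libraries.

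Gdf15 and Zmat3 rose in both extract libraries. Gdf15 (chromosome 8, 70629393 to 70632470, minus strand) had 2830 and 2829 counts in extract libraries, against 658 and 263 in control libraries, or 65.6 and 59.4 against 13.7 and 8.85 CPM. The control pair spread by 1.55-fold and the extract pair by 1.11-fold, and the lower extract library was 4.33-fold above the higher control library. The log2 fold change of Gdf15 was 2.46 (SE 0.23, 95% interval 1.92 to 3.01, edgeR adjusted p = 0.00235), or 5.51-fold. Zmat3 (chromosome 3, 32334792 to 32365665, minus strand) had 3342 and 3183 counts in extract libraries, against 388 and 193 in control libraries. Its levels were 77.5 and 66.8 CPM after the extract and 8.09 and 6.496 CPM in control. The log2 fold change of Zmat3 was 3.30 (SE 0.18, 95% interval 2.87 to 3.73, edgeR adjusted p = 0.000296), or 9.86-fold. Gfral, the Gdf15 receptor, was singled out because of its role and had 0 counts in all 4 libraries, which allows up to 0.0750 and 0.0656 CPM in the extract libraries and 0.0603 and 0.0931 in the control libraries (3 counts of each library's total, for counting error only).

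**Figure D3:**
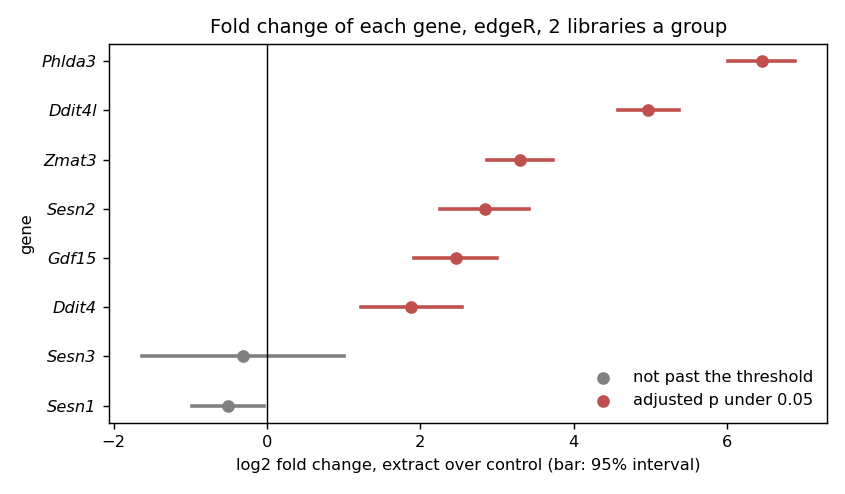
Log2 fold change of each gene, extract over control, from edgeR on 2 libraries a group, with bars for the 95% interval, red where the adjusted p is under 0.05 and grey where it is not. The intervals of 6 genes lie above 0, from Ddit4 at 1.89 to Phlda3 at 6.45, and that of Sesn3 spans 0 from -1.63 to 1.003.

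The order of the 8 genes by level per length differed between the groups. In extract livers Phlda3 came first at 88.8 ± 2.40 CPM per kb, followed by Gdf15 at 33.7 ± 2.38, Ddit4 at 22.6 ± 5.41, Ddit4l at 16.2 ± 0.22, Sesn2 at 12.7 ± 2.44, Zmat3 at 6.31 ± 0.66, Sesn1 at 2.98 ± 0.61 and Sesn3 at 0.52 ± 0.20 (SD, n = 2). No neighbours in that order overlapped between their libraries. The place of Zmat3 rests on its annotated exon length of 11.44 kb, and the lengths of the transcripts used in liver were not measured. In control livers Ddit4 (6.10 ± 1.90 CPM per kb) and Gdf15 (6.09 ± 1.86) shared the first place with overlapping libraries, and Sesn1 (4.23 ± 0.036), Sesn2 (1.76 ± 0.46) and Phlda3 (1.02 ± 0.12) followed without overlap. The lowest were Sesn3 (0.64 ± 0.41), Zmat3 (0.64 ± 0.098) and Ddit4l (0.515 ± 0.0099, SD, n = 2), and the libraries of Sesn3 spanned those of the other two. Both extract libraries were above both control libraries for 6 genes and below them for Sesn1, against 27.6% and 26.7% of all genes. All 8 genes were higher in extract replicate 1 than in extract replicate 2, against 50.5% of all genes, and 6 of the 8 were higher in control replicate 1 than in control replicate 2, against 52.95%.

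**Figure D4:**
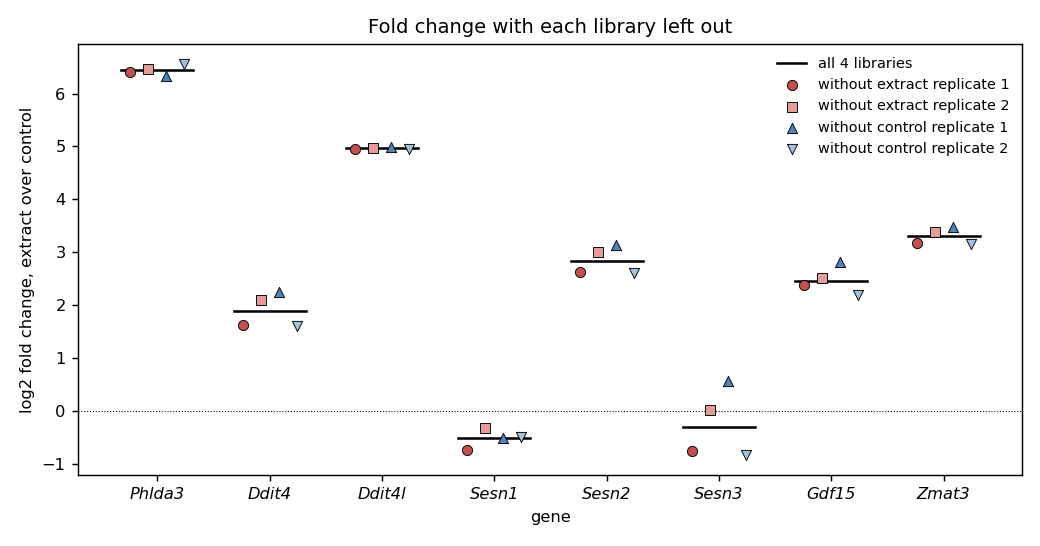
Log2 fold change of each gene, extract over control, with all 4 libraries (black line) and with each library left out in turn (symbols). All 5 fits of Ddit4 lie between 1.61 and 2.25, and Sesn3 moves from -0.84 without control replicate 2 to 0.55 without control replicate 1.

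Most p53 targets on a further list also rose. Of its 28 genes, all tested with edgeR, 18 were higher and 0 lower, while 10 missed the threshold, with a median log2 fold change of 2.1004. The called share was 64.3%, against 8.54% of all genes in either direction. Without adjustment, 23 had a p under 0.05 and were higher and 0 were lower, and DESeq2 called 21 and 0 and limma-voom 20 and 0. The death receptor Tnfrsf10b (log2 fold change 6.35), the ectodysplasin receptor Eda2r (5.86), the cyclin Ccng1 (3.09) and the nuclease Aen (2.93) had the smallest p-values. The count of higher targets was 14 without extract replicate 1 and 23 without control replicate 2. Among 11 tested genes on the list of p53 and its regulators, 1 was higher and 0 lower, or 9.09% called, against 8.54% of all genes. The higher gene was the kinase Atr (log2 fold change 0.87), and the median was 0.41. Atr was not past the threshold without extract replicate 1 (0.67), without extract replicate 2 (1.02) or with limma-voom (0.84). The phosphatase Ppm1d (0.79, edgeR adjusted p = 0.0534), the p53 inhibitor Mdm4 (0.50, 0.104) and the ubiquitin ligase Rchy1 (0.41, 0.170) were not past it. Without control replicate 1, 3 regulators were higher, and without control replicate 2, 4 were.

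Against 8.54% of all genes called in either direction, the lists of the kinase pathways that these genes act on had 12.5% (PI3K and Akt), 10% (genes that mTORC1 acts on), 4% (amino acid sensing), 0% (mTOR complexes) and 0% (AMPK) called. Of 15 genes of the mTOR complexes and the TSC complex, edgeR called 0, with 0 at an unadjusted p under 0.05 and 0 by DESeq2 and limma-voom. The median log2 fold change was -0.08 (0.094 under total-count scaling, where that of all genes was 0.16). The smallest p-value was that of Tsc1, a subunit of the TSC complex through which Ddit4 acts (log2 fold change -0.44, edgeR adjusted p = 0.231), followed by the mTOR subunits Prr5l (-0.73), Mlst8 (0.34) and Prr5 (-0.44). Without control replicate 2, 2 of these genes were lower. RNA levels do not measure the activity of a kinase.

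On the list of PI3K and Akt signalling, 3 of 24 genes were higher and 0 lower, while 21 missed the threshold, with a median of 0.05 (-0.038 without extract replicate 1). The PI3K regulatory subunit Pik3r3 had 9.53 and 6.74 CPM in extract libraries, against 1.61 and 2.19 CPM in control libraries. Its log2 fold change was 2.11 with an SE of 0.32 (edgeR adjusted p = 0.0120). The pseudokinases Trib2 (1.45) and Trib1 (0.64) also rose, while the leukocyte PI3K subunit Pik3cd (-1.93, edgeR adjusted p = 0.0608) was not past the threshold. Without extract replicate 1 the count was 0, with Pik3r3 at 1.82, Trib2 at 1.47 and Trib1 at 0.57. Without extract replicate 2 it was 1, with Trib2 at 1.402 and Trib1 at 0.67 not past the threshold. It was 6 higher and 3 lower without control replicate 1, and 5 higher and 7 lower without control replicate 2.

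On the amino acid sensing branch, which the sestrins bind, 1 of 25 tested genes was higher and 0 lower, with a median of 0.05. Fnip2, a partner of folliculin in that branch, rose (log2 fold change 0.79), but not past the threshold without extract replicate 1 (0.85) or extract replicate 2 (0.71). The arginine sensor Castor1 (1.41, edgeR adjusted p = 0.0836), folliculin itself (Flcn, -0.63, 0.0893) and Kptn (0.55, 0.152) were not past it. Without control replicate 2 the count was 5 higher and 2 lower, and without control replicate 1 it was 2 higher and 0 lower.

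Among 20 genes that mTORC1 acts on, directly or not, 1 was higher and 1 lower. Without adjustment, edgeR gave 1 higher and 6 lower at a p under 0.05. The median log2 fold change was -0.08. That median turned positive without extract replicate 2 (0.0090) or control replicate 2 (0.018). It was 0.091 under total-count scaling, where that of all genes was 0.16. The lipogenic factor Srebf1, which mTORC1 activates, had 419.1 and 367.1 CPM in extract libraries, against 178.4 and 150.9 CPM in control libraries, a log2 fold change of 1.26 with an SE of 0.16 (edgeR adjusted p = 0.00672). The translation inhibitor Pdcd4 fell to 38.7 and 47.7 CPM in extract libraries, against 95.6 and 80.8 CPM in control libraries, a log2 fold change of -1.03 with an SE of 0.17 (edgeR adjusted p = 0.0147), and was not past the threshold without extract replicate 1 (-0.90). Larp1 (-0.56), which binds mRNAs of the translation machinery, and the autophagy kinase Ulk2 (-0.50) were not past it. The count of lower genes was 0 without extract replicate 1 and 6 without either control library, and DESeq2 called 4, while 3 genes were higher without control replicate 2. The AMPK list had 0 of 11 genes past the threshold with edgeR, 4 at an unadjusted p under 0.05, 2 by DESeq2 and 0 by limma-voom, with a median of 0.28. Its smallest p-values were those of Camkk2 (-0.76), a kinase upstream of AMPK, the AMPK subunits Prkaa2 (0.47) and Prkab1 (0.60), and Stradb (0.42). Without control replicate 1, 4 AMPK genes were higher and 1 lower, and without control replicate 2 it was 2 and 1.

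**Figure D5:**
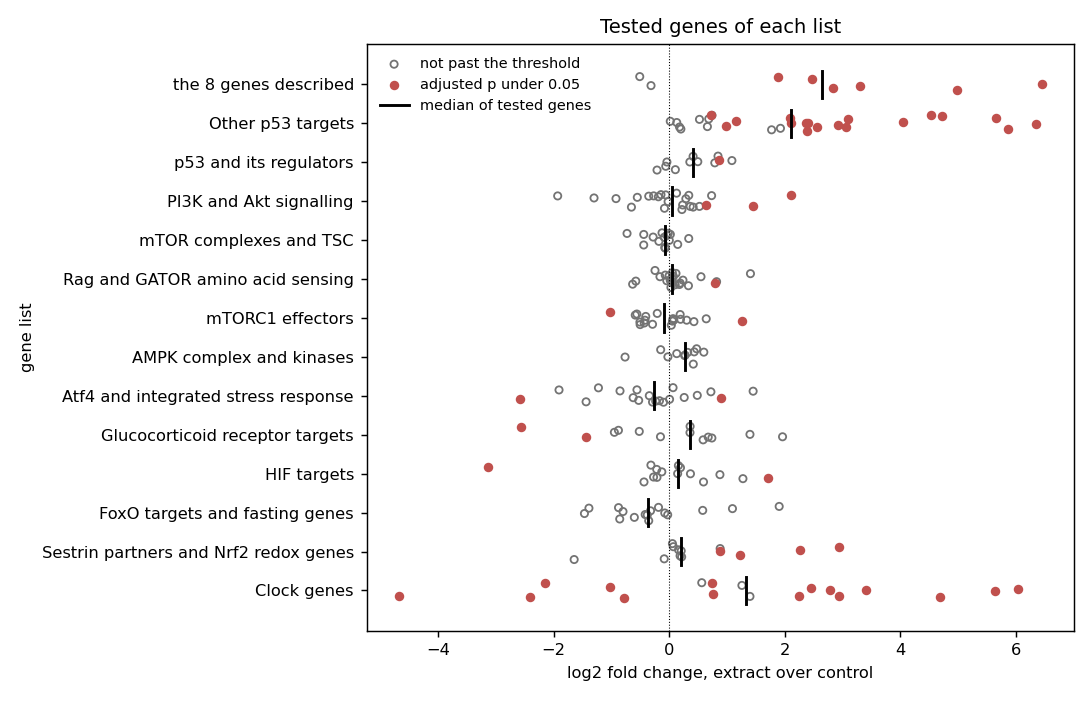
Log2 fold change, extract over control, of every tested gene on 13 lists and of the 8 genes described, with filled red points for an adjusted p under 0.05, open grey points for the rest and a black bar at the median. The 8 genes and the other p53 targets have medians of 2.65 and 2.1004, while the mTOR, Akt and amino acid sensing lists have medians from -0.08 to 0.05.

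Ddit4, Sesn2 and Gdf15 are also known to answer to other regulators. The lists for those regulators hold targets and also some of the regulators themselves or their partners. Of their tested genes, 10% (Atf4), 15.4% (glucocorticoid receptor), 13.3% (hypoxia) and 30.8% (Nrf2 and sestrin partners) were called in either direction. Of all genes, 8.54% were. On the list for Atf4 and the integrated stress response, which can raise Sesn2, Ddit4 and Gdf15, 1 of 20 tested genes was higher and 1 lower, with a median of -0.26 (0.016 without control replicate 1). The transcription factor Cebpb rose (0.90) and the glutathione-degrading enzyme Chac1 fell (-2.58), and neither was past the threshold without either extract library, nor was Chac1 with limma-voom (-2.36). Without extract replicate 1 they stood at 0.88 and -2.39 and without extract replicate 2 at 0.89 and -2.86. The stress protein Nupr1 (-1.91) and the kinase Eif2ak3 (-0.62) were not past the threshold. The Atf4 list had 3 genes higher and 3 lower without control replicate 1, and 3 higher and 6 lower without control replicate 2.

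Glucocorticoids raise Ddit4 as well, and on their list 0 of 13 genes were higher and 2 lower with edgeR. At an unadjusted p under 0.05, 3 were higher and 5 lower, while DESeq2 called 2 and 4 and limma-voom 1 and 3. The median of 0.36 turned to -0.25 without extract replicate 1. The transcription factors Zbtb16 (-2.56) and Klf9 (-1.43) fell, and Errfi1 (-0.95) and tyrosine aminotransferase (Tat, -0.88) were not past the threshold here but were so in 10 and 5 of the 14 alternatives. Without control replicate 1, 2 were higher and 4 lower, without control replicate 2, 2 and 5, and without extract replicate 1, 0 and 3. Hypoxia targets are a class that includes Ddit4. Of 15 genes on their list, which also holds the hypoxia factors Hif1a and Epas1, 1 was higher and 1 lower, with a median of 0.15. The glycolytic regulator Pfkfb3 rose (1.70) and Ndrg1 fell (-3.13), the second not past the threshold without extract replicate 1 (-3.27) or extract replicate 2 (-3.04), with the replicate block (-3.02) or with no low-count filter (-3.12). The glucose transporter Slc2a1 (0.59) and Ankrd37 (1.28) were not past it. Without control replicate 1, 4 hypoxia targets were higher and 1 lower, and without control replicate 2 it was 3 and 2.

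On the list of FoxO targets and fasting genes, to which Sesn3 would belong, edgeR called 0 of 16 genes, against 8.54% of all genes. At an unadjusted p under 0.05 there were 4, with 2 by DESeq2 and 1 by limma-voom, and the median was -0.37. Cpt1a (-0.60), a carnitine transferase of fat oxidation, the glucose-releasing enzyme G6pc (-1.47), Foxo4 (-0.38) and the stress gene Gadd45a (1.90) had the smallest p-values, and Gadd45a was past the threshold in 7 of the 14 alternatives. This list depended on the control libraries, with 2 genes higher and 9 lower without control replicate 1, and 4 and 4 without control replicate 2. The secreted stress hormones and the processing enzymes grouped with Gdf15 had 0 of 13 tested genes past the threshold with edgeR, against 8.54% of all genes. At an unadjusted p under 0.05 there was 1, with 1 by DESeq2 and 0 by limma-voom. The median was -0.08 (0.056 without control replicate 1). Under total-count scaling it was 0.083, where that of all genes was 0.16. Fgf21, another stress hormone of the liver, lay at 0.61 ± 0.21 CPM in extract libraries and 1.73 ± 1.56 CPM in control libraries (SD, n = 2 each; log2 fold change -1.47, edgeR adjusted p = 0.329). Angptl4 (-2.80), Inhbb (-1.62) and Fgl1 (0.42) were not past the threshold either. Without control replicate 1, 3 of these genes were lower, and without control replicate 2, 2 were higher and 2 lower.

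Sesn2 is also known as an Nrf2 target and as a partner of Keap1, and 4 of 13 genes on that list rose, 0 fell and 9 were not past the threshold, with a median of 0.21. Sulfiredoxin (Srxn1, log2 fold change 2.93), which renews peroxiredoxins, the quinone reductase Nqo1 (2.26), Nfe2l2, which encodes Nrf2 (1.23), and the thioredoxin reductase Txnrd1 (0.88) rose. The count was 3 without extract replicate 1, where Txnrd1 (0.84) was not past the threshold, and 2 without extract replicate 2, where Nfe2l2 (1.08) and Txnrd1 (0.90) were not.

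The genes whose levels ran most like each of the 8 over the 4 libraries were taken by the smallest distance between centred log2(CPM + 1) values among 9684 genes with a mean of at least 5 CPM. For Zmat3 (log2 fold change 3.30) they were the carnitine transferase relative Cpt1c (4.66), the p53 target Ccng1 (3.09) and the urinary protein gene Mup20 (3.25). Their distances were 0.0993 to 0.121. For Ddit4l (4.97) they were the p53 target Tnfrsf10b (6.35), the transcription factor Mybl1 (6.04) and Atp8b5 (4.95), at distances of 0.207 to 0.369. For Phlda3 (6.45) they were Inka2 (8.32), the clock output gene Dbp (6.04) and the peptide hormone Apln (6.88), at 0.802 to 1.03. Adding 1 narrows fold changes of genes near 0 CPM in control, such as Cpt1c (0.43 CPM), Tnfrsf10b (0.25), Mybl1 (0.40) and Inka2 (0.090). A small distance thus does not mean an equal fold change. Sesn2 and Gdf15 had Mmrn2 in common, with Cyp2a5 nearest to Sesn2 (0.0923) and Gstm1 nearest to Gdf15 (0.188). Ddit4 was nearest to caveolin 1 (Cav1), Samd4 and Akap12 (0.0882 to 0.121). Mup20, Cyp2a5 and Gstm1 have close copies with which reads can be shared, so their counts are less certain. Without extract replicate 1, Dbp (6.04), Apln (6.83), Cav1 (1.88) and Samd4 (1.67) were not past the threshold, and without extract replicate 2 Dbp (6.08) and Apln (6.98) were not. With no low-count filter neither Dbp (6.04) nor Apln (6.88) was past it, nor was Apln with the replicate block (6.98). The 3 genes nearest to Sesn1 and the 3 nearest to Sesn3 were not past it. The distances rest on 4 libraries in 2 groups and describe these libraries only.

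The extract livers also differed in the transcripts of other cell types, and whole-liver RNA cannot tell fewer cells of a type from less RNA per cell. Of Kupffer, sinusoidal endothelial, vascular endothelial and hepatocyte markers 90.9%, 70%, 66.7% and 41.7% were called in either direction, against 8.54% of all genes. The 11 Kupffer cell markers summed to 83.6 and 84.7 CPM in extract libraries, against 826.8 and 637.5 CPM in control libraries, with 10 of 11 lower and Clec4f (-4.86) and Vsig4 (-4.55) first by p-value. The 10 sinusoidal endothelial markers summed to 268.7 and 256.4 CPM in extract libraries, against 419.3 and 434.2 CPM in control libraries, with 7 of 10 lower, among them Mrc1 (-2.25) and Stab2 (-2.01), and 4 of 10 without extract replicate 1. Vascular endothelial markers summed to 276.0 and 246.6 CPM in extract libraries, against 179.3 and 142.6 CPM in control libraries, with Ly6c1 (5.20) and Emcn (1.71) among 5 of 9 higher and Plvap (-0.80) as the 1 lower. The vascular count was 1 higher and 0 lower without extract replicate 1, with Emcn at 1.66 and Plvap at -0.67, and 3 higher and 0 lower without extract replicate 2, with Emcn at 1.72 and Plvap at -0.99. Plvap was also not past the threshold under total-count scaling (-0.64). The 12 hepatocyte markers summed to 101988 and 108658 CPM in extract libraries, against 149561 and 156753 CPM in control libraries, with 4 of 12 lower and 1 higher. Serpina1c (-1.57) and Serpina1a (-1.18) fell and Cyp3a11 (0.85) rose. These genes too have close copies with which reads can be shared, so their counts are less certain. Reads without a unique place took 5.18% and 5.33% of records in extract libraries, against 6.70% and 9.03% in control libraries. Hepatocyte counts were 1 lower and 0 higher without extract replicate 1, with Serpina1a at -1.12 and Cyp3a11 at 0.90 not past the threshold, and 2 lower and 0 higher without extract replicate 2, with Cyp3a11 at 0.76, and Cyp3a11 was not past it without the robust step (0.85) either. No marker of these 4 lists was at 0 in either group, and the part of these shifts in the levels of the 8 genes was not tested.

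Of 18 clock genes 10 were higher and 5 lower, or 83.3% called, against 8.54% of all genes, with a median of 1.33. Per2 had 61.9 and 64.4 CPM in extract libraries, against 6.86 and 5.02 CPM in control libraries, and Per3 (log2 fold change 4.68) rose while Arntl (-2.42), Npas2 (-4.68), Nfil3 (-2.15) and Cry1 (-1.03) fell. The count was 5 higher and 3 lower without either extract library, where Cry1 (-0.93 without extract replicate 1 and -1.16 without extract replicate 2) was not past the threshold. The sources used here give no times of collection, so the extract and a difference in time of day cannot be told apart for the clock genes or for any of the 8 genes that vary over the day.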

How the data were processed

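Liver RNA of 2 extract and 2 control libraries was analysed, with groups taken from the sample titles. The deposited files hold raw counts per gene symbol, made by the authors with no normalization. CASAVA 1.8, HISAT2 2.1.0, HTSeq and the mm10 build are named per the submitters' processing notes, with the annotation and strand setting not given in the sources used here. Left out were 5 rows that name no gene. None of the 8 genes shares exon bases with another gene of GENCODE vM21, from which exon lengths were taken.

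The test was that of edgeR 4.0.16, run in R 4.3.3 (filterByExpr, TMM, robust quasi-likelihood F test, 2-sided) over 13963 genes, and the script was tested on simulated data. Standard errors were derived from the fold change and the F value, and the common biological coefficient of variation came to 22.3%. The alternatives were DESeq2 1.42.0, limma 3.58.1 (voom), other scalings, other filters, no robust step, a replicate block and leaving out each library.

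The 8 genes and 25 gene lists were chosen with earlier results of these data known, so no list test was made. The named genes were drawn from the 8 genes, up to 4 genes (2 for cell markers) per list with the smallest p-value and a mean of at least 1 CPM, up to 2 called genes of the opposite direction, and up to 3 nearest genes per member, of which 1 gene is not reported here. Of 346 list genes 342 were found by their symbol and 1 more by a synonym (Car9). Lists of monocyte, stellate, bile duct, T and NK, B and neutrophil markers had 1, 0, 0, 0, 0 and 0 genes higher and 1, 2, 1, 0, 0 and 0 lower, with edgeR. These were 20%, 16.7%, 16.7%, 0%, 0% and 0% of the tested markers, against 8.54% of all genes. At an unadjusted p under 0.05, 7 T and NK, 1 B and 0 neutrophil markers were lower, and DESeq2 called 5, 1 and 0 and limma-voom 0 of each.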

Additional observations from a re-analysis of the deposited data

How the results depend on the processing

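The 6 genes that rose were past the threshold under all 14 alternatives, so the count of higher genes was 6 in each, and the highest adjusted p among them was 0.0214, for Ddit4. Their log2 fold changes ran from 6.33 to 6.62 for Phlda3, 4.93 to 5.14 for Ddit4l, 3.16 to 3.47 for Zmat3, 2.60 to 3.14 for Sesn2, 2.19 to 2.82 for Gdf15 and 1.61 to 2.25 for Ddit4. The count of lower genes was 0 in every alternative that kept all libraries and ran from 0 to 2 with 1 library left out, with 1 (Sesn1) without control replicate 1 and 2 (Sesn1 and Sesn3) without control replicate 2. With 1 library left out, Sesn1 ran from -0.74 to -0.34 and Sesn3 from -0.84 to 0.55, so Sesn3 changed sign without extract replicate 2 (0.02) and without control replicate 1 (0.55). In these fits the spread of the single remaining library was taken from the other group. Phlda1 also changed sign, to 0.053 under total-count scaling, where the median of all genes was 0.16. It ran from -0.24 to 0.038 with 1 library left out, and the cause was not tested.

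The labels give the groups the same replicate numbers but no pairing, and the correlation of deviations between same-numbered libraries over genes was 0.22. With the replicate block 6 of the 8 genes were higher and 0 lower, and over all genes 902 were higher and 682 lower. Calls over all genes ran from 233 higher and 134 lower without extract replicate 1 to 1826 and 1420 without control replicate 1 and 1809 and 1782 without control replicate 2, with 310 and 169 without extract replicate 2. DESeq2 called 1024 and 904. Of 51 called genes named from the lists and as nearest genes, 30 were past the threshold in every alternative and 0 changed sign, and of 32 not called 27 were past it in at least 1.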
